A study of Bos taurus with 8 samples.

Results

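Satellite cells (SCs), the stem cells of skeletal muscle, were compared between passage 5 and passage 2 of serum-free culture in 3 donor cattle of the Belgian Blue breed. The cells were those that carried the authors' deposited SC label and came from donors 5, 6 and 10, whose cultures had been sorted for SCs by flow cytometry. These were 6315 of the 36129 cells of the series, 3299 at passage 2 and 3016 at passage 5. Donor 5 was a female calf, donor 10 a male calf and donor 6 a male adult, and no group carried a transgene or a drug treatment. By the study's methods all of these cultures grew in serum-free growth medium, with laminin-521 as the coating for sorted SCs. The study's results describe laminin as tried after these data, against collagen I as control. The coating of the sequenced SC cultures is therefore not certain. By the same methods FAP cultures grew on collagen I and unsorted cultures on fibronectin, so the coating may have differed wherever SCs of the sorted cultures are set beside them. The rest of the cells were FAPs of these SC cultures and cells from unsorted cultures of donors 1, 2 and 9, from cultures sorted for fibro-adipogenic progenitors (FAPs) of donors 4, 7 and 8, and from muscle tissue and passages 0 and 8. Donors 1 and 9 were female adults, donors 2, 4 and 7 female calves and donor 8 a male adult. These groups thus also differ from the SC donors in sex and age. At each passage the cells of all donors were pooled into 1 droplet library of 3′ RNA tags with unique molecular identifiers (UMIs) and were assigned to donors by genotype. The effect of the passage and the effect of the library therefore cannot be told apart, and the FAP cultures and the SCs of the unsorted cultures, which were in the same pair of libraries, are given beside the SC values.

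In muscle, SCs rest beneath the basement membrane of the fibre and are marked by the transcription factor PAX7. Once activated they divide as myoblasts under MYF5 and MYOD1, leave the cell cycle as MYOG comes on, and fuse into myotubes. FAPs are the fibroblast-like cells of the tissue, marked by PDGFRA, and they make most of its interstitial collagen. Growing SCs in number while keeping them able to differentiate is the aim of cultured meat production, so the passages compare a young with an older stage of the same expansion.

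Raw UMIs of the SCs of each donor were summed per passage, which gave 3 paired values in each passage. Levels are counts per 1000000 UMIs (CPM), a fold change is the log2 ratio of passage 5 to passage 2 within donors with its standard error (SE), and a gene is said to have risen or fallen where its Benjamini-Hochberg adjusted p over all genes tested was under 0.05. The SE was derived from the F value of the test, which shares dispersion across genes. It is not the spread of the donors' own ratios and can be smaller. The sums held 23552927 to 31783784 UMIs per donor at passage 2 and 10573088 to 31637636 at passage 5. Median UMIs per SC were 20507 to 27795 at passage 2 and 20155 to 22708 at passage 5. Genotype doublets were 19.6% of the barcodes at passage 2 and 19.1% at passage 5 and were left out. Of the kept cells, 24 barcodes occurred in both libraries, 2 of them among these SCs.

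SC markers were present in the labelled cells at both passages, and so were transcripts of FAP markers. PAX7 lay at 4.18, 4.70 and 4.00 CPM at passage 2 and 5.38, 4.99 and 3.15 CPM at passage 5 in donors 5, 6 and 10, against 0.0126 CPM at passage 2 and 0.0278 CPM at passage 5 as a mean in the FAPs of the FAP cultures. MYF5 stood at 145, 138 and 144 CPM at passage 2 and 142, 166 and 197 CPM at passage 5. Over 8 SC markers the summed level was 477 to 1155 CPM at passage 2 and 802 to 1257 CPM at passage 5, and in the FAPs it was 16.5 to 25.2 CPM over both passages. Cells were also chosen by more UMIs of the SC markers ITGA7, MYF5, NCAM1 and DES together than of the FAP markers PDGFRA, DCN, LUM and ITGA5. These cells with more SC than FAP marker UMIs were 42, 11.5 and 6.27% of the cells of the SC cultures of donors 5, 6 and 10 at passage 2 and 12.6, 10.2 and 24.4% at passage 5. The cut sets markers of unlike level against each other. At passage 2 DCN alone averaged 1264 CPM in SCs, against 220, 142, 115 and 198 CPM for ITGA7, MYF5, NCAM1 and DES. The study describes desmin, the product of DES, as higher in committed SCs, so the cut may favour such cells. It does not tell how many labelled SCs were FAPs, and the cells that pass need not be purer SCs. Of other cell types, PECAM1 and RGS5, which mark endothelial cells and pericytes, PTPRC of leukocytes and SOX10 of glia were at 0 in every SC sum, RGS5 and PTPRC also in the FAPs. The endothelial list summed to 3.34 to 11.2 CPM in SCs at passage 2 and 8.88 to 14.5 CPM at passage 5, nearly all of it CLDN5, against 0.530 to 1.17 and 0.868 to 1.88 CPM in FAPs. The smooth muscle and mesenchymal list summed to 407 to 861 and 944 to 1003 CPM in SCs, with ACTA2 at 383 to 818 CPM at passage 2, against 514 to 668 and 256 to 539.7 CPM in FAPs. The glial list, mainly S100B, stood at 17.7 to 47.9 and 15 to 66.1 CPM in SCs, and the macrophage list at 1.85 to 2.04 and 2.40 to 2.64 CPM. PDGFRA was present at 14.8 to 43.9 CPM at passage 2 and 20.5 to 33.8 CPM at passage 5, which was 4.89% and 4.37% of its mean level in the FAP cultures. For FBN1, COL3A1, LUM and DCN the SC level at passage 2 was 27.6%, 24.2%, 14.9% and 12.2% of that in FAPs.

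The sorted culture of donor 5 held many FAPs at passage 5. SCs were 98.3%, 99.4% and 98.9% of the cells of donors 5, 6 and 10 at passage 2, and 43%, 98% and 93.9% at passage 5. The other cells were all labelled FAPs, 593 of them in donor 5 at passage 5, against 448 SCs. The mean share was lower by a difference of -20.6 points (SD 30.1, n = 3 donors, lower in all 3), with an exact 2-sided sign-flip p of 0.25, the smallest p that 3 donors can give.

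Between passage 2 and passage 5 the SCs lost transcripts of DNA replication and mitosis and gained transcripts of matrix proteins, of contractile cytoskeleton genes, of activin subunits and BMP4 and of the mitochondrial genome. Of 12195 genes tested, 502 rose (4.12%) and 685 fell (5.62%). Counting only those with a log2 fold change beyond 1, 185 were higher (1.52%) and 287 were lower (2.35%) at passage 5. All passage 5 donors lay above all passage 2 donors in 2425 of the 12195 genes and below them in 1725. A lack of overlap is therefore no added evidence for genes picked by the size of their change. How many passed depended on the donors: without donor 5, edgeR passed 0 genes with 2230 at an unadjusted p under 0.05, while without donor 6 and without donor 10 it passed 565 and 804. Of the 97 named genes that passed with all donors, 64 passed without donor 6 and 78 without donor 10.

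**Figure D1:**
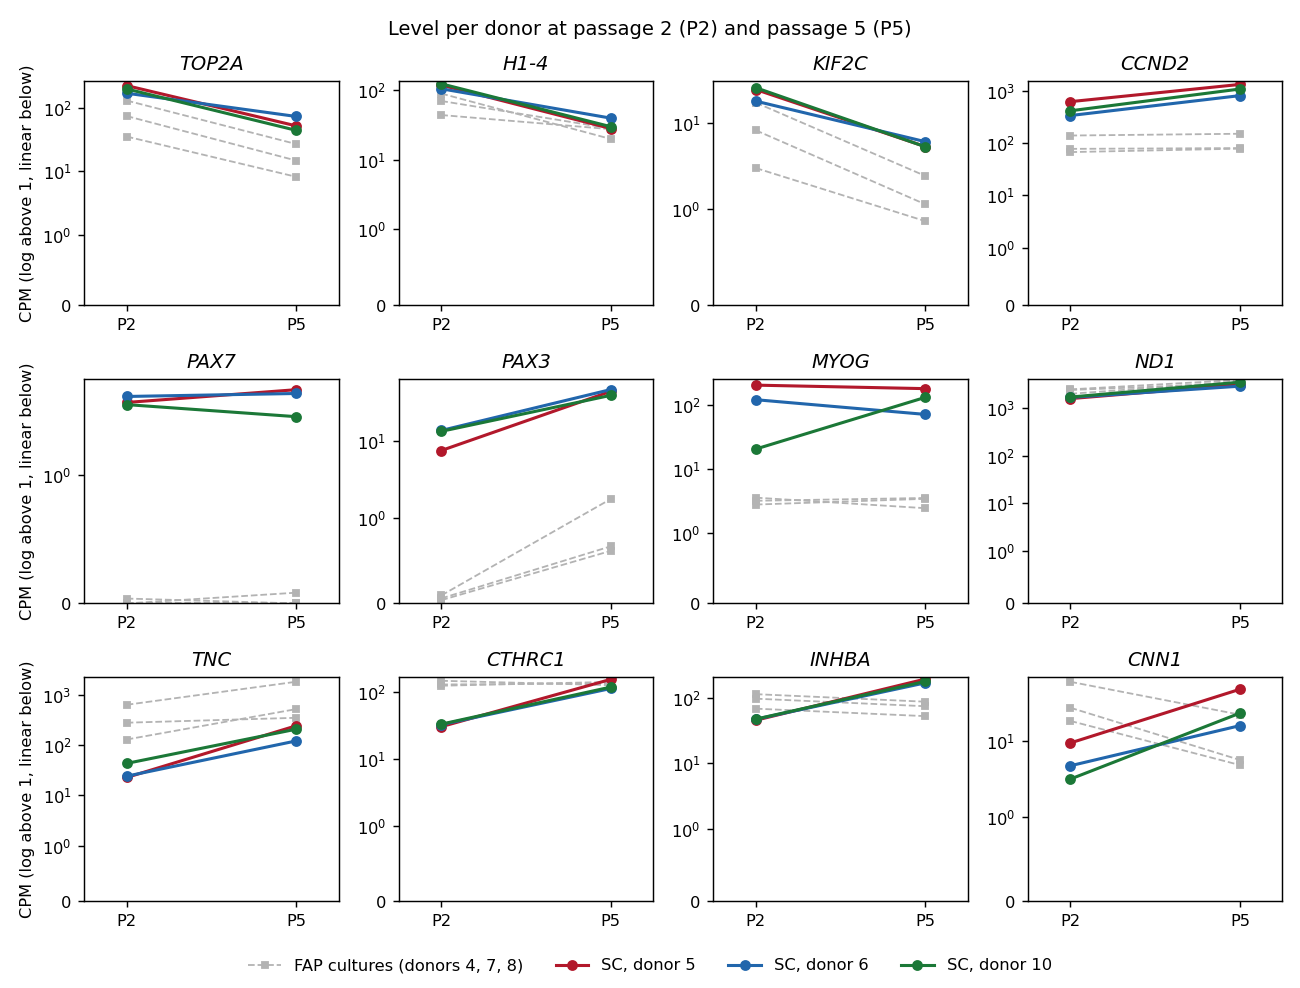
Levels of 12 genes in CPM (counts scaled to a common library size,  vertical axis, logarithmic above 1 CPM and linear below it) at passage 2 and passage 5, with 1 coloured line per donor for satellite cells and grey dashed lines for the 3 FAP cultures. TOP2A, H1-4 and KIF2C fall and PAX3, TNC, CTHRC1, INHBA and CCND2 rise in all 3 SC donors, PAX7 stays within 3.15 to 5.38 CPM, and MYOG rises in donor 10 while it is lower at passage 5 in donors 5 and 6.

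The 12 largest falls among genes with a mean of at least 10 CPM in the higher passage, here passage 2, included histone, replication and spindle genes. TOP2A, the topoisomerase that untangles replicated chromosomes, stood at 225, 170.5 and 199 CPM at passage 2 and 52.1, 73.4 and 44.3 CPM at passage 5 in donors 5, 6 and 10 (log2 fold change -1.89, SE 0.22, adjusted p = 0.0255). KIF2C, a kinesin that corrects chromosome attachment, went from 24.1, 17.7 and 25.3 CPM to 5.29, 6.03 and 5.26 CPM (log2 fold change -2.05, SE 0.18, adjusted p = 0.0203). H1-4, a linker histone made in S phase, was at 119, 106 and 125 CPM at passage 2 and 28.1, 39.7 and 29.8 CPM at passage 5 (log2 fold change -1.91, SE 0.17, adjusted p = 0.0203). In each of these genes all passage 5 donors lay below all passage 2 donors, and donor 6, the adult, moved least. The core histone genes H3C7, H3C3, H2AC12 and H2AC20 fell by 2.19, 2.16, 2.14 and 1.88 on the log2 scale. These belong to families of near-identical copies, so how their reads divide between copies is uncertain. CLSPN of the replication checkpoint, the repressor E2F8, the kinesin KIF15 and the mitotic gene PIMREG fell by 1.93, 1.90, 1.85 and 1.83. EEF1A2, a translation elongation factor and not a cell cycle gene, was at 13.6, 11.6 and 16.8 CPM at passage 2 and 6.63, 1.66 and 5.58 CPM at passage 5 (log2 fold change -1.84, SE 0.35, adjusted p = 0.0435).

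As lists, 32 of 42 S phase genes and 45 of 52 G2M genes fell and 0 rose, beside the 5.62% of all genes that fell and the 4.12% that rose. The median log2 fold change was -1.07 for the S phase genes and -1.33 for the G2M genes, where the median of all genes tested was 0.00517. RRM1, which makes deoxynucleotides, was at 104, 95.7 and 101 CPM at passage 2 and 51.3, 53.5 and 49.1 CPM at passage 5 (log2 fold change -1.03, SE 0.090, adjusted p = 0.0203). Replication licensing genes MCM2 to MCM7, PCNA and the spindle genes BIRC5, ANLN, CENPE and NDC80 were among those that fell. Summed over the G2M list, the level was 4667, 3403 and 4636 CPM in donors 5, 6 and 10 at passage 2 and 1806, 2006 and 1784 CPM at passage 5. Without donor 10 the falling S phase and G2M genes were 21 and 39, without donor 6 they were 29 and 40, and without donor 5 they were 0 and 0 with medians of -1.01 and -1.23. Of all genes 357 of 12297 fell without donor 10, 364 of 12333 without donor 6 and 0 without donor 5. In the cells with more SC than FAP marker UMIs 0 of 40 and 0 of 51 fell, with medians of -0.55 and -0.91, but only 7 of all 9502 genes fell there, so the counts say nothing particular about these lists.

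Fewer cells held MKI67 transcripts. After each cell was thinned to 8000 UMIs, MKI67, a protein of dividing cells, was seen in 37.6, 24.4 and 44.4% of the SCs of donors 5, 6 and 10 at passage 2 and in 9.69, 12.1 and 10.3% at passage 5. Before thinning these shares were 48.2, 30.6 and 56.7% and 11.6, 15 and 14%. Falls were also measured in FAPs of the same libraries, where 33 of 42 S phase and 45 of 52 G2M genes fell, against 11.8% of all genes that fell there and 10.4% that rose. MKI67 was seen in 29.1, 15.7 and 4.63% of thinned FAPs of donors 4, 7 and 8 at passage 2 and in 5.20, 2.72 and 2.49% at passage 5. A test of the SC change against the FAP change passed 0 of the 94 S phase and G2M genes, with 10 at an unadjusted p under 0.05 and 0 passing in DESeq2. Of all 12655 genes tested for this difference 2477 were under that unadjusted p.

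In the SCs of the unsorted cultures these genes were lower at the start and did not pass. Their G2M genes summed to 1408, 1705 and 893 CPM in donors 1, 2 and 9 at passage 2 and to 1658, 1005 and 636 CPM at passage 5. Of 36 S phase and 47 G2M genes tested there, edgeR passed 0 (9 at an unadjusted p under 0.05), where 3.18% of all genes rose and 2.45% fell. Of all 9488 genes 1868 were under that unadjusted p. These sums rest on 51 to 354 cells, fewer than in the sorted cultures.

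The deposited cell cycle calls did not follow these levels. By the deposited phase column, G1 cells were 47.0%, 63.8% and 38.0% of the SCs of donors 5, 6 and 10 at passage 2 and 57.1%, 58.1% and 53.5% at passage 5, a mean difference of 6.65 points (SD 11, n = 3, higher in 2 of 3 donors, exact sign-flip p = 0.5). Scored again with both passages together, from the same S phase and G2M genes, they were 46.1%, 62.7% and 37.4% at passage 2 and 83.3%, 81.6% and 82.4% at passage 5. That difference was 33.7 points (SD 13.4, higher in 3 of 3 donors, exact sign-flip p = 0.25, the smallest possible). Thinning to 8000 UMIs gave 33.0 points. Phase calls take their cut from the cells they are scored with, and free RNA enters them, so the shares are relative. The study's methods describe normalization for each time point, with cell cycle effects regressed out.

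**Figure D2:**
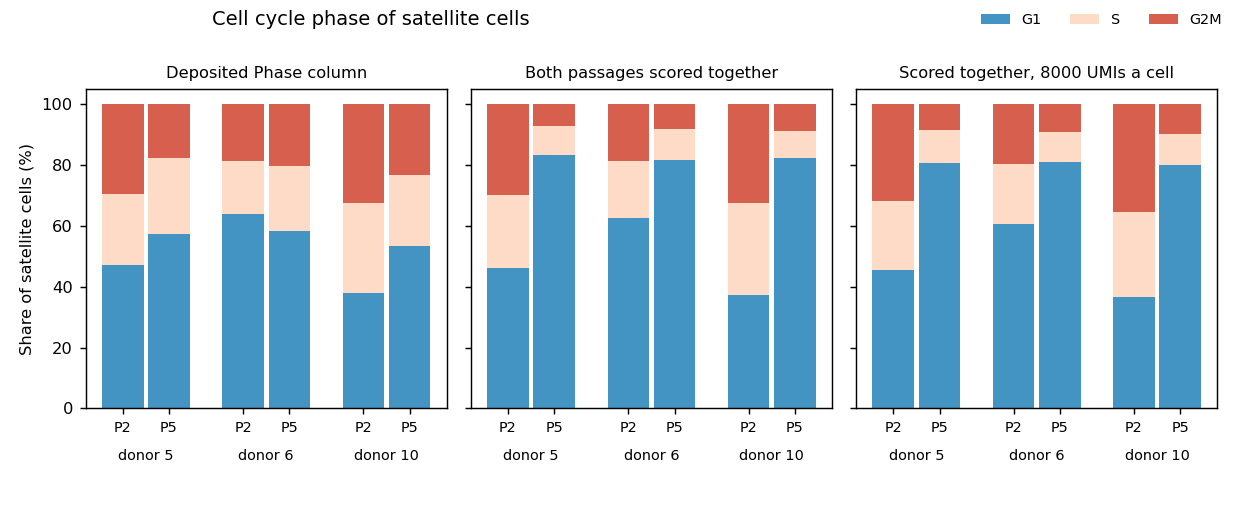
Share of satellite cells (vertical axis, percent) in G1, S and G2M for each donor at passage 2 (P2) and passage 5 (P5), by the deposited column, by scores computed on both passages together, and by those scores after thinning to 8000 UMIs a cell. The G1 share at passage 5 is 53.5% to 58.1% in the deposited column and 81.6% to 83.3% when both passages are scored together.

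Fewer genes passed with the called phase held fixed, in sums of fewer cells. Among cells deposited as G1, 84 of 11362 genes rose (0.739%) and 47 fell (0.414%). Within those cells MKI67 was still at 5.79, 4.54 and 7.54 CPM at passage 2 and 0.894, 1.00 and 0.813 CPM at passage 5, and 9 of 47 G2M genes fell. Without donor 6 only 5 genes passed among these cells, and without donor 10 there were 596. The 185 genes past the fold limit upward over all SCs had a median of 1.32 over the 176 tested in these cells, of which 59 passed, and the 287 past it downward a median of -0.92 over 225, of which 35 passed. These cells are part of those that chose the genes. Among cells in G1 when both passages were scored together, an alternative chosen after seeing the data, 48 of 11345 genes rose (0.423%) and 17 fell (0.15%). There MKI67 was at 5.62, 4.69 and 7.73 CPM at passage 2 and 1.83, 2.48 and 1.84 CPM at passage 5. Of 49 G2M genes 1, ANLN, fell, and of 38 S phase genes 0 did. At an unadjusted p under 0.05, 9 S phase genes were lower, beside 1089 of all 11345 genes. Joint scoring called these cells G1 by low levels of the same lists, so these counts are in part set by the choice. Neither call made the level of MKI67 equal between passages.

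The risers in these G1 cells included NRN1, CDH17, SFRP5, CPE, SMOC1, OXT, INHBA, HAS2, CDH2, IGFBP3, CCND2, FBLN2 and TAGLN, with log2 fold changes from 0.89 for TAGLN to 3.07 for NRN1, and 7 of the 13 mitochondrially encoded genes, beside 0.423% of all genes. PAX3 gave 1.96 (SE 0.23, adjusted p = 0.0523) and LMOD1 1.68 (SE 0.22, adjusted p = 0.0543), short of the limit, whereas among cells deposited as G1 both passed, with 1.85 (SE 0.23, adjusted p = 0.0437) and 1.63 (SE 0.22, adjusted p = 0.0437). Of the matrix lists, 2 of 37 matricellular and 0 of 32 collagen genes passed, with 17 and 15 higher at an unadjusted p under 0.05 and medians of 0.48 and 0.50. Over all 11345 genes there, 0.423% rose and 1242 were higher at an unadjusted p under 0.05. Among cells deposited as G1 they were 5 of 37 and 1 of 32, beside 0.739% of all genes. Among those that fell were HOMER2, a synaptic scaffold protein, at -2.03 (SE 0.22, adjusted p = 0.0438), COL15A1, a basement membrane collagen, at -1.45 (SE 0.14, adjusted p = 0.0387), and the immunoproteasome subunit PSMB8 at -0.80 (SE 0.087, adjusted p = 0.0436). Their changes over all SCs were -2.42, -1.21 and -0.87.

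The 12 largest rises were taken among genes with a mean of at least 10 CPM in the higher passage, a limit that a gene low at passage 2 could meet through passage 5 alone. CDH17, an atypical cadherin, went from 21.8, 2.98 and 5.82 CPM in donors 5, 6 and 10 to 139, 29.4 and 43.2 CPM (log2 fold change 2.86, SE 0.15, adjusted p = 0.0120). SFRP5, a secreted Wnt antagonist, was at 6.55, 5.35 and 4.06 CPM at passage 2 and 39.1, 26.8 and 35.1 CPM at passage 5 (log2 fold change 2.61, SE 0.17, adjusted p = 0.0203). TNC, the matricellular protein tenascin-C, was at 22.8, 24.2 and 43.4 CPM at passage 2 and 244, 122 and 209 CPM at passage 5 (log2 fold change 2.61, SE 0.27, adjusted p = 0.0225). In all 3 genes the passages did not overlap, as in 2425 of all 12195 genes that were higher at passage 5. In the fewer cells with more UMIs of SC markers than of FAP markers, 69 to 480 per donor and passage, SFRP5 gave -0.034 and TNC 1.58 on the log2 scale. CPE, a carboxypeptidase that matures peptide hormones, stood at 35.3, 14.7 and 6.51 CPM at passage 2 and 197, 55.2 and 54 CPM at passage 5 (log2 fold change 2.41, SE 0.23, adjusted p = 0.0212), and OXT, the oxytocin precursor, at 9.57, 37.6 and 14.1 CPM at passage 2 and 57.4, 103 and 89.6 CPM at passage 5 (log2 fold change 2.16, SE 0.28, adjusted p = 0.0287). NRN1, a neurite growth protein, ELOVL7, a fatty acid elongase, TGFBI, a matrix adhesion protein, and LMCD1, a LIM domain protein of muscle, rose by log2 3.14, 3.13, 2.37 and 2.51, each without overlap between passages.

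A pair of these genes was uneven between donors. STMN2, a microtubule protein known from neurons, had the largest fold change, yet stood at 3.26, 0.121 and 1.90 CPM at passage 2 and 57.1, 0.753 and 38.6 CPM at passage 5 (log2 fold change 4.08, SE 0.21, adjusted p = 0.0120), so the passage 5 value of donor 6 lay within the range of passage 2. It was seen in 13.9, 0.420 and 9.37% of thinned SCs at passage 5 (unthinned 16.3, 0.939 and 13.8%), and in 6.94, 5.00 and 3.88% of thinned FAPs of donors 4, 7 and 8, so the share in donor 6 was below that in FAPs. TFAP2A, a transcription factor of ectoderm and neural crest, was highest in donor 6 at both passages, at 0.148, 4.34 and 0.720 CPM at passage 2 and 1.54, 29.2 and 2.47 CPM at passage 5 (log2 fold change 2.45, SE 0.29, adjusted p = 0.0225).

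Part of the genes in the matrix and adhesion lists rose. Of 39 matricellular proteins, glycoproteins and proteoglycans, 13 rose and 0 fell, 7 of 34 integrins and adhesion receptors rose, 6 of 19 basement membrane genes rose and 1 fell, and 5 of 33 interstitial collagens and their processing enzymes rose, beside the 4.12% of all genes. The medians of these lists were 0.57, 0.35, 0.65 and 0.65. CTHRC1, a secreted regulator of collagen deposition, was at 30.1, 32.3 and 32.8 CPM at passage 2 and 152, 111 and 117 CPM at passage 5 (log2 fold change 1.92, SE 0.14, adjusted p = 0.0203). FBLN2, a fibulin of elastic fibres and basement membranes, was at 124, 198 and 135 CPM at passage 2 and 397, 427 and 385 CPM at passage 5 (log2 fold change 1.37, SE 0.13, adjusted p = 0.0203). Neither overlapped between passages. LUM, a collagen-binding proteoglycan, BGN and FBLN5 rose as well. Without the donor block the risers of the 4 lists were 9, 4, 1 and 1, where 312 of all 12195 genes rose, so the last count is near that share. Without donor 6 the risers of the matricellular list were 8 and those of the adhesion list 1. There 201 of all 12333 genes rose, so the adhesion count is near that share and the matricellular count above it. Without donor 5, where no gene of any kind passed, none of these lists had a riser although the medians were 0.34 to 0.56. In the cells with more SC than FAP marker UMIs the matricellular median was 0.37 and the basement membrane median 0.057. That choice of cells counts against LUM and DCN, which belong to the matricellular list, so this list's value there is in part set by the choice.

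The chains of collagen I did not pass. COL1A1 stood at 1040.1, 2404 and 395 CPM at passage 2 and 4166, 4212 and 2440.2 CPM at passage 5 (log2 fold change 1.76, SE 0.39, adjusted p = 0.0656) and COL1A2 at 1932, 3694 and 1105 CPM at passage 2 and 7234, 7088 and 6944 CPM at passage 5 (log2 fold change 1.77, SE 0.36, adjusted p = 0.0571). Donor 6 already had the highest level of both at passage 2. DESeq2 passed 18 of the 33 genes of the collagen list, all upward, where it passed 813 of all 12195 genes upward. Of the enzymes that modify or cross-link collagen 4 passed, P4HA1 at 0.76 (SE 0.13, adjusted p = 0.0311), PLOD3 at 0.60 (SE 0.11, adjusted p = 0.0353), LOXL1 at 0.57 (SE 0.12, adjusted p = 0.0435) and LOXL2 at 0.68 (SE 0.11, adjusted p = 0.0300). Of the basement membrane genes, SMOC1, a matricellular protein that binds BMP ligands, had the largest rise, at 15.9, 24 and 6.05 CPM at passage 2 and 54.6, 82.3 and 49.4 CPM at passage 5 (log2 fold change 2.11, SE 0.29, adjusted p = 0.0287), and LAMA2, LAMA5, LAMB2 and LAMC1, chains of laminin, rose with it. In the cells with more SC than FAP marker UMIs SMOC1 gave -0.058. COL15A1 fell, from 22.6, 69.2 and 25.3 CPM to 12.1, 23.9 and 13 CPM (log2 fold change -1.21, SE 0.15, adjusted p = 0.0236).

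FAP markers moved in part with the matrix genes. Of 8 markers, MFAP5 and LUM rose and 6 did not pass, 7 had a positive log2 fold change, and the median was 0.47. Short of the limit were SERPINF1 at 1.22 (SE 0.32, adjusted p = 0.0839), COL3A1 at 0.65 (SE 0.30, adjusted p = 0.238), ITGA5 at 0.29 (SE 0.18, adjusted p = 0.316), PDGFRA at 0.11 (SE 0.23, adjusted p = 0.784), DCN at 0.091 (SE 0.15, adjusted p = 0.708) and FBN1 at -0.18 (SE 0.092, adjusted p = 0.253). DESeq2 passed 4 of the 8, all upward, where it passed 813 of all 12195 genes upward. Their summed level in SCs was 2482 to 5933 CPM at passage 2 and 4912 to 5884 CPM at passage 5, against 14352 to 31926 and 31739 to 42224 CPM in the FAP cultures. In the FAPs inside the SC cultures it was much nearer, at 6181 and 5243 CPM in donors 5 and 10 at passage 2. At passage 5 it was 6431, 7142 and 8017 CPM there in donors 5, 6 and 10. The mean SC level as a share of the mean level in the FAP cultures went from 4.89% to 4.37% for PDGFRA, from 12.2% to 8.91% for DCN and from 1.83% to 17.6% for MFAP5. For LUM, ITGA5 and SERPINF1 it went from 14.9%, 10.9% and 8.95% to 19.5%, 22.3% and 16.4%, and for COL3A1 and FBN1 from 24.2% and 27.6% to 16.4% and 20.5%. It was thus higher at passage 5 for 4 of the 8 and lower for 4. MFAP5, a microfibril protein, was at 4.47, 10.8 and 5.47 CPM at passage 2 and 19.2, 29.4 and 14.6 CPM at passage 5 in the SCs of donors 5, 6 and 10, and at 316 CPM in the FAPs of donor 5's own culture at passage 5. In those FAPs PDGFRA, DCN, LUM and ITGA5 were at 65.8, 2141, 1131 and 265 CPM. The SC means at passage 5 were 26.8, 1314, 1037 and 23.5 CPM. COL3A1, FBN1 and SERPINF1 were at 1505, 636 and 371 CPM in those FAPs, against SC means of 2424.5, 228 and 172 CPM. CTHRC1 stood at 127, 122 and 144 CPM at passage 2 and 132, 139 and 124 CPM at passage 5 in FAPs of donors 4, 7 and 8, where the passages overlapped. In FAPs of the FAP cultures 16 of 40 matricellular genes rose and 3 fell and 21 of 32 collagen genes rose and 3 fell, beside 10.4% and 11.8% of all genes, TNC, FBLN2, LUM, COL1A1 and COL1A2 among the risers. The SC change exceeded the FAP change for 5 of 40 and 1 of 33 and lay below it for 1 and 1, beside 1.26% and 1.09%. The part of RNA from FAPs in the SC values was not tested.

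In the SCs of unsorted cultures the matrix lists had few risers, beside 3.18% of all genes that rose there and 2.45% that fell. Of 34 matricellular genes 0 rose and 5 fell (median -0.16), and of 30 collagen genes 1 rose and 1 fell. TNC changed there by -0.41 (SE 0.17, adjusted p = 0.208) and CTHRC1 by -0.45 (SE 0.16, adjusted p = 0.149). GREM1, which binds BMPs, rose in the sorted SCs by 1.84 (SE 0.15, adjusted p = 0.0203) and fell in the unsorted ones, with a log2 fold change of -1.75 (SE 0.28, adjusted p = 0.00529). SMOC1 rose in both, by 2.66 in the unsorted cultures (SE 0.35, adjusted p = 0.00232). The FAP markers summed to 9462, 5233 and 8111 CPM in the unsorted SCs of donors 1, 2 and 9 at passage 2 and to 4269, 6241 and 5009 CPM at passage 5, and 1 of 8 had a positive change. Their part in these values, and the difference between sorted and unsorted cultures, was not tested. Over all genes, 24 of the 115 genes that were past the fold limit upward in sorted SCs and tested here also rose, and 3 fell. Of those past it downward, 10 of 198 fell and 1 rose.

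**Figure D3:**
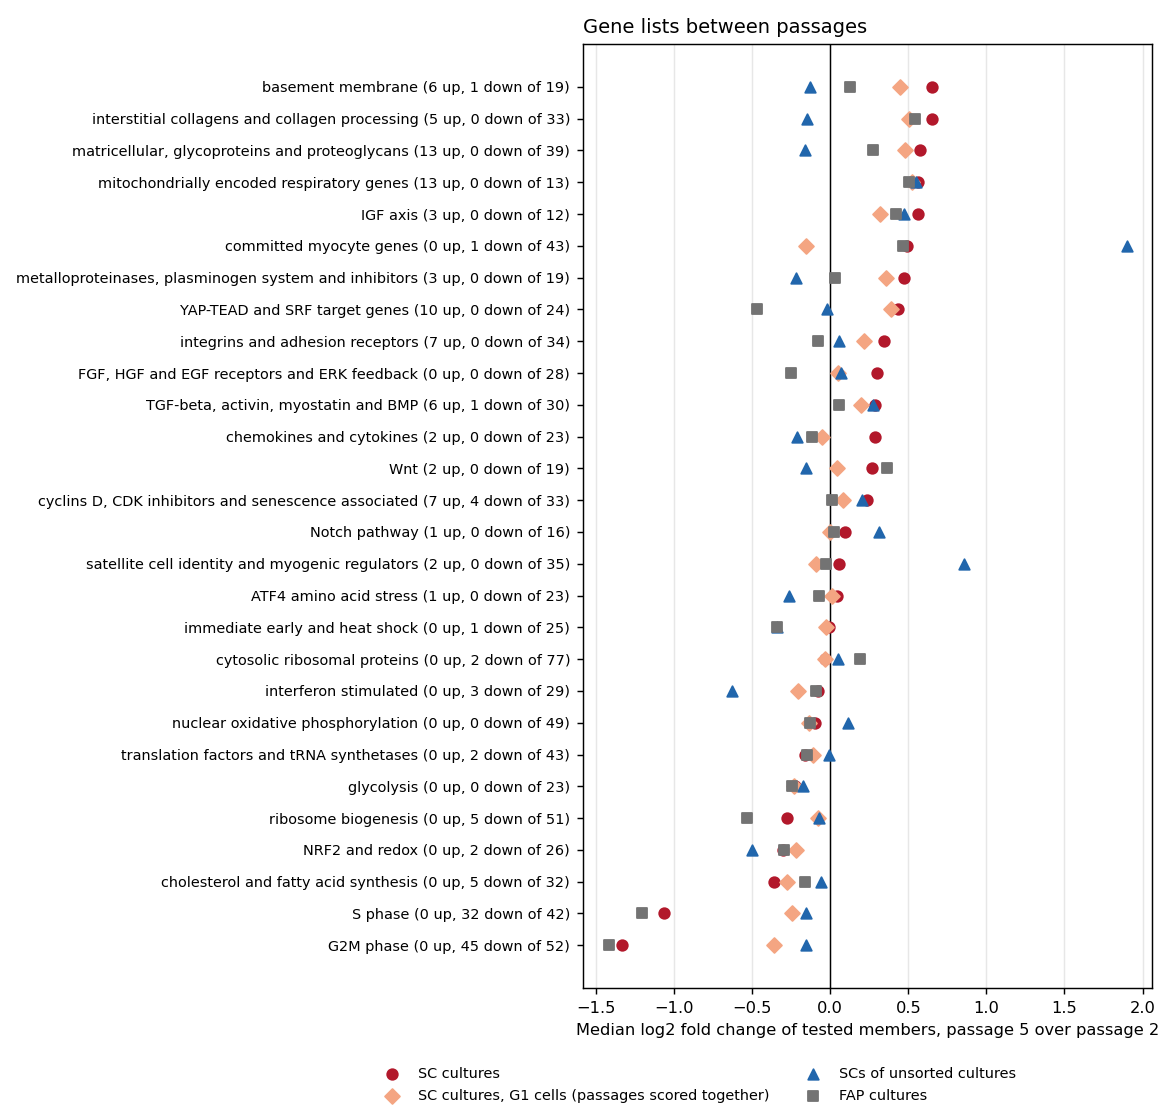
Median log2 fold change from passage 2 to passage 5 (horizontal axis) of the tested members of 28 gene lists, for the satellite cells of the sorted cultures, their G1 cells when both passages are scored together, the satellite cells of unsorted cultures and the FAP cultures, with the counts of genes that rose and fell in the sorted satellite cells beside each name. S phase and G2M genes lie lowest in sorted satellite cells (medians -1.07 and -1.33) and in FAPs, and the YAP-TEAD and SRF targets lie above 0 in sorted satellite cells and below 0 in FAPs.

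Targets of YAP-TEAD and SRF, the factors that read tension in the actin cytoskeleton, differed in direction between SCs and the FAPs of FAP cultures. In SCs 10 of 24 rose and 0 fell, beside the 4.12% of all genes that rose, and in FAPs of the FAP cultures 12 of 23 fell and 0 rose, beside the 11.8% that fell. In the FAPs inside the SC cultures the list summed to 4787 and 4991 CPM in donors 5 and 10 at passage 2 and to 6474, 7918 and 8151 CPM in donors 5, 6 and 10 at passage 5, higher at passage 5 as in SCs (no test). These sums rest on 19 and 12 cells at passage 2 and on 593, 31 and 70 cells at passage 5. The difference between these changes passed for 11 of 24, each with the SC change above the FAP change, where 1.26% of all 12655 genes tested lay above and 1.09% below. CNN1, the smooth muscle calponin, was at 9.48, 4.74 and 3.17 CPM at passage 2 and 48.3, 16 and 23.4 CPM at passage 5 in SCs of donors 5, 6 and 10 (log2 fold change 2.27, SE 0.23, adjusted p = 0.0210). In FAPs of donors 4, 7 and 8 it was at 60.6, 27.6 and 18.5 CPM at passage 2 and 22.3, 5.65 and 4.84 CPM at passage 5 (log2 fold change -1.85, SE 0.17, adjusted p = 0.00566). The difference was log2 4.10 (SE 0.32, adjusted p = 0.00590). LMOD1, which nucleates actin filaments in smooth muscle, went from 1.60, 1.81 and 1.56 CPM to 7.11, 6.94 and 6.14 CPM in SCs (log2 fold change 1.96, SE 0.16, adjusted p = 0.0203), and TAGLN, which binds actin, was at 27.6, 25.5 and 19.7 CPM at passage 2 and 51, 58.7 and 47.7 CPM at passage 5 (log2 fold change 1.06, SE 0.11, adjusted p = 0.0203). CCN2, a secreted YAP target, rose by 1.10 (SE 0.12, adjusted p = 0.0215), TPM1 by 1.07 (SE 0.16, adjusted p = 0.0300) and FLNA by 0.52 (SE 0.062, adjusted p = 0.0225). Without donor 6 the risers of the list were 6, beside 201 of all 12333 genes. Without donor 5, where no gene of any kind passed, they were 0 with a median of 0.64. In the cells with more SC than FAP marker UMIs 1 of 22 rose, where 34 of all 9502 genes did, with a median of 0.27.

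ACTG2 and TPM2, a smooth muscle actin and a tropomyosin, rose by 1.19 (SE 0.15, adjusted p = 0.0233) and 0.62 (SE 0.10, adjusted p = 0.0313). Of 4 tested markers of smooth muscle and mesenchymal cells CNN1 alone rose, while MYH11, the smooth muscle myosin, was at 2.67, 1.97 and 1.44 CPM at passage 2 and 3.46, 2.64 and 1.44 CPM at passage 5 and ACTA2 at 818, 761 and 383 CPM at passage 2 and 874, 954 and 887 CPM at passage 5 (log2 fold change 0.48, SE 0.23, adjusted p = 0.246). RGS5 was at 0. In the unsorted SCs 2 of 21 of the YAP-TEAD and SRF targets rose and 3 fell, CCN2 with -1.15 (SE 0.20, adjusted p = 0.0308). Among the G1 cells scored together 1 of 24, TAGLN, passed, beside 0.423% of all genes, and among those deposited as G1 TAGLN, TPM1 and LMOD1 did, beside 0.739%, with the list's median when scored together at 0.39 against 0.44 over all SCs.

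**Figure D4:**
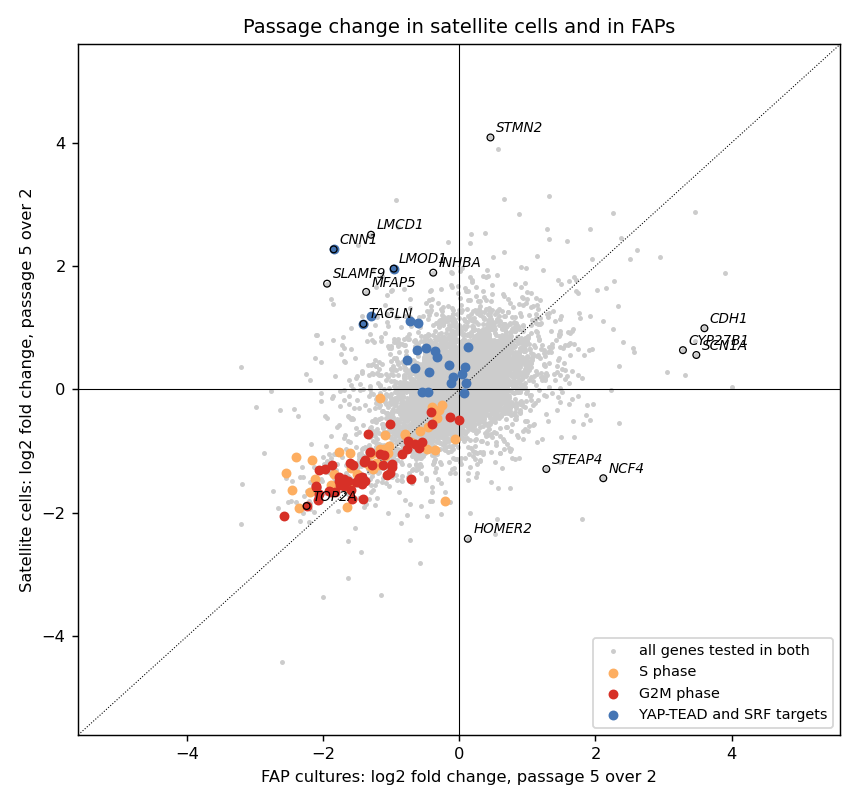
Log2 fold change from passage 2 to passage 5 in satellite cells (vertical axis, donors 5, 6 and 10) against that in FAP cultures (horizontal axis, donors 4, 7 and 8) for genes tested in both, with the dotted line where the changes are equal. Most S phase and G2M genes lie near the dotted line at the lower left, and CNN1, LMOD1 and TAGLN lie above 0 in satellite cells and below 0 in FAPs.

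Beyond these, the largest differences between the SC and FAP changes were of genes of varied function. LMCD1 rose in SCs and fell in FAPs, with a difference of 3.77 (SE 0.31, adjusted p = 0.00708). SLAMF9, a receptor of the SLAM family, differed by 3.63, STMN2 by 3.59 and MFAP5 by 2.92. In the other direction, SCN1A, a voltage-gated sodium channel, rose in FAPs from 1.85, 4.48 and 5.40 CPM to 20.7, 56.2 and 53.8 CPM and was at 50.9, 60.6 and 36.8 CPM at passage 2 and 58.5, 77.8 and 90.2 CPM at passage 5 in SCs (difference -2.95, SE 0.30, adjusted p = 0.00769). NCF4, CYP27B1, STEAP4 and CDH1 differed by -3.62, -2.73, -2.72 and -2.63, each with a rise in FAPs. In SCs CYP27B1 was at 0.296, 0.362 and 0.576 CPM at passage 2 and 0.673, 0.628 and 0.718 CPM at passage 5, and STEAP4 at 0.444, 2.33 and 1.21 and 0.481, 0.439 and 0.718 CPM, both low. The limit for naming was a mean of at least 10 CPM in either cell type, and LMOD1, SLAMF9, HOMER2, NCF4, CYP27B1 and STEAP4 met it through the FAPs and not in SCs. HOMER2 fell in SCs, from 5.21, 8.68 and 6.13 CPM to 1.35, 1.85 and 0.837 CPM (log2 fold change -2.42, SE 0.23, adjusted p = 0.0203), against 0.12 (SE 0.13, adjusted p = 0.527) in FAPs.

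Ligands of the TGF-beta superfamily were among the risers. Of 30 genes of the TGF-beta, activin, myostatin and BMP pathways 6 rose and 1 fell, beside 4.12% and 5.62% of all genes. INHBA, the subunit of activin A, had levels of 45.7, 47.4 and 47.6 CPM at passage 2 and 196, 171 and 179.9 CPM at passage 5 in donors 5, 6 and 10 (log2 fold change 1.89, SE 0.091, adjusted p = 0.0120). The passages lay far apart, and in thinned cells INHBA was seen in 23.7, 24.1 and 27% of SCs at passage 2 and 53.2, 52 and 48.1% at passage 5 (unthinned 42.4, 39.7 and 48.4% and 70.8, 69.1 and 63.3%). Thinned FAPs of donors 4, 7 and 8 showed it in 49.9, 43 and 30.6% and 40.4, 33.1 and 27.6%. In FAPs it fell, with -0.38 (SE 0.067, adjusted p = 0.0185), and the SC change exceeded the FAP change by 2.25 (SE 0.10, adjusted p = 4.74e-04). The unsorted SCs also gained it, by 0.73 (SE 0.11, adjusted p = 0.00514). BMP4, a ligand, was at 38.9, 36.4 and 44.5 CPM at passage 2 and 71.7, 67.7 and 129 CPM at passage 5 (log2 fold change 1.04, SE 0.15, adjusted p = 0.0287). TGFB1 rose by 0.80 (SE 0.13, adjusted p = 0.0308), INHBB by 1.71 (SE 0.32, adjusted p = 0.0382) and the receptor BMPR2 by 0.50 (SE 0.10, adjusted p = 0.0427). The co-receptor TGFBR3 fell by 0.55 on the log2 scale. Without donor 6, 3 genes of the list rose, beside 201 of all 12333 genes. Without donor 5, where no gene of any kind passed, none did, with a median of 0.30 against 0.29 over all donors. In the cells with more SC than FAP marker UMIs 0 of 23 did, with a median of 0.11, where 34 of all 9502 genes rose.

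Counts in the other signalling lists stand beside the same background of 4.12% of all genes that rose and 5.62% that fell. Of 12 IGF genes IGFBP2, IGFBP3 and IGF2BP2 rose, IGFBP3 from 235, 34.4 and 309.9 CPM to 521, 157 and 861 CPM (log2 fold change 1.54, SE 0.22, adjusted p = 0.0289). Of 19 Wnt genes the receptor FZD1 and the ligand WNT5B rose, whereas FZD1 fell in the unsorted SCs and WNT5B fell in the FAPs of the FAP cultures. HES1, a Notch target, was the only one of 16 Notch genes to pass, at 35.1, 24.6 and 32.2 CPM at passage 2 and 71.2, 38.1 and 54.8 CPM at passage 5 (log2 fold change 0.75, SE 0.11, adjusted p = 0.0274), while HEY1, JAG2 and DTX4 gave 1.36, 0.71 and -0.68 short of it. None of 28 genes of FGF, HGF and EGF receptors and ERK feedback passed in edgeR. At an unadjusted p under 0.05, 5 were higher and 2 lower, beside 1771 and 2015 of all 12195 genes. DESeq2 passed 4 upward and 1 downward, beside 813 and 879 of all 12195 genes. Without donor 10, 8 of 27 rose and 1 fell in edgeR, beside 447 and 357 of all 12297 genes. DUSP6, which reports ERK activity, was at 21.9, 15.9 and 29.1 CPM at passage 2 and 77.1, 31.9 and 42.7 CPM at passage 5 (log2 fold change 1.06, SE 0.25, adjusted p = 0.0675), and the receptor FGFR4 at 84.1, 140.3 and 49.7 CPM at passage 2 and 21.3, 63.2 and 38.9 CPM at passage 5 (log2 fold change -1.20, SE 0.32, adjusted p = 0.0880). Of 19 genes of metalloproteinases, proteases and their inhibitors 3 rose and 0 fell, with CTSK, a collagen-degrading cathepsin, at 0.70 (SE 0.13, adjusted p = 0.0351) and TIMP2, a metalloproteinase inhibitor, at 0.95 (SE 0.17, adjusted p = 0.0427).

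Among the regulators of myogenic identity PAX3 had the largest rise that passed. Of 35 genes of satellite cell identity and myogenic regulation PAX3 and SIX4 rose and 0 fell, a share near the 4.12% of all genes that rose. PAX3, the paralogue of PAX7 that acts in embryonic muscle precursors, was at 7.46, 13.6 and 13.2 CPM at passage 2 and 43.8, 46.2 and 38.9 CPM at passage 5 (log2 fold change 1.88, SE 0.21, adjusted p = 0.0225). It was seen in 6.36, 8.94 and 11.2% of thinned SCs at passage 2 and in 26.7, 29.5 and 25.1% at passage 5, against 0, 0.117 and 0% and 0.679, 1.14 and 0.513% of thinned FAPs of donors 4, 7 and 8. Before thinning the SC shares were 16.9, 21.9 and 28.3% and 55.4, 54.7 and 50.9%. Its FAP level rose too, from 0.0379, 0.0933 and 0.0586 CPM to 0.614, 1.76 and 0.668 CPM. The unsorted SCs gained it too, by 2.19 (SE 0.42, adjusted p = 0.0335). PAX7 changed by -0.031 (SE 0.19, adjusted p = 0.932), MYF5 by 0.17 (SE 0.12, adjusted p = 0.366) and MYF6 by -0.092 (SE 0.11, adjusted p = 0.609). MYOD1, at 167, 161 and 43.1 CPM at passage 2 and 105, 109 and 145 CPM at passage 5, had no common direction over the donors (log2 fold change 0.072, SE 0.57, adjusted p = 0.948). Without donor 10 it fell, by 0.66 on the log2 scale (adjusted p = 0.0314), and 5 of the 35 genes of the list fell, where 357 of all 12297 genes did.

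Genes of committed myocytes differed in direction between donors. Of 43 tested, CRYAB, a small heat shock protein of muscle, fell, at 215, 325 and 239 CPM at passage 2 and 121, 155 and 181 CPM at passage 5 (log2 fold change -0.83, SE 0.14, adjusted p = 0.0318), and 0 rose. Within donor 10, 42 of the 43 were higher at passage 5, within donor 5 27 were and within donor 6 7 were. MYOG, the switch to terminal differentiation, was at 207, 122 and 20.6 CPM at passage 2 and 182, 71.9 and 133 CPM at passage 5 in donors 5, 6 and 10 (log2 fold change 0.43, SE 0.79, adjusted p = 0.754). MYH3, the embryonic myosin, was at 76.7, 54.4 and 11 CPM at passage 2 and 119, 25.9 and 88.3 CPM at passage 5, and ACTA1, the skeletal actin, at 115, 85.7 and 22.4 CPM at passage 2 and 102, 17.9 and 94.5 CPM at passage 5, both chosen after their values were seen. In all 3 genes donor 10 was lowest at passage 2 and higher at passage 5, and donor 6 was lower at passage 5. Summed over the list, SCs held 8736, 5589 and 1794 CPM at passage 2 and 7111, 4635 and 7763 CPM at passage 5. Leaving out donor 10 turned the list's median from 0.49 to -0.36.

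Counting cells gave the same order. MYOG was seen in 17.4, 11.7 and 5.20% of the thinned SCs of donors 5, 6 and 10 at passage 2 and in 13.7, 8.69 and 12.6% at passage 5, against 2.69, 3.16 and 2.19% and 2.49, 1.49 and 2.34% of thinned FAPs of donors 4, 7 and 8, with 20119 to 31290 median UMIs per FAP at passage 2 and 18462 to 22349 at passage 5. Unthinned, the SC shares were 23.9, 16.7 and 11.8% and 19, 13.6 and 17.8%. In the unsorted SCs 21 of 41 committed genes rose and 0 fell, beside 3.18% and 2.45% of all genes, with sums of 3516, 7008 and 3359 CPM at passage 2 and 13119, 16013 and 11617 CPM at passage 5 in donors 1, 2 and 9. There MYOG rose by 1.32 (SE 0.11, adjusted p = 2.48e-04).

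The D-type cyclins CCND1 and CCND2 rose and the inhibitors CDKN2C and CDKN2D fell. Of 33 genes of cyclins D, CDK inhibitors and senescence, 7 rose and 4 fell, beside 4.12% and 5.62% of all genes. CCND2, a cyclin D of muscle precursors, was at 628, 339.7 and 419 CPM at passage 2 and 1343, 819 and 1097 CPM at passage 5 (log2 fold change 1.19, SE 0.082, adjusted p = 0.0203), without overlap, and it exceeded the FAP change by 1.04 (SE 0.11, adjusted p = 0.00947). CCND1 rose by 0.67 (SE 0.083, adjusted p = 0.0233), the lysosomal galactosidase GLB1 by 0.88 (SE 0.10, adjusted p = 0.0210) and PLK2, a stress kinase, by 0.70 (SE 0.080, adjusted p = 0.0221). The inhibitor CDKN2C fell, from 33.3, 37.5 and 36 CPM to 14.5, 21.1 and 16.5 CPM (log2 fold change -1.11, SE 0.11, adjusted p = 0.0203), as did LMNB1 and HMGB1, a lamin and a chromatin protein whose loss is used as a sign of senescence and which are also higher in cycling cells. In the G1 cells scored together LMNB1 changed by -0.39 (SE 0.12, adjusted p = 0.168), and 0 of the 33 genes of the list fell. Only 0.15% of all genes fell there, so that count says nothing particular about this list. Among cells deposited as G1, HMGB1 still fell, the 1 gene of 33 to do so, beside 0.414% of all genes. CDKN1A, which was picked after its value was seen, was at 197, 173 and 162 CPM at passage 2 and 209, 164 and 245 CPM at passage 5 (log2 fold change 0.14, SE 0.14, adjusted p = 0.541).

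All 13 protein genes of the mitochondrial genome rose, beside 4.12% of all genes, with a median of 0.56. ND1, a subunit of complex I, was at 1609.8, 1704 and 1736 CPM at passage 2 and 3180.2, 2944 and 3571 CPM at passage 5 (log2 fold change 0.88, SE 0.067, adjusted p = 0.0203) and COX1, of complex IV, at 5139, 5468 and 5134 CPM at passage 2 and 8912, 8162 and 8578 CPM at passage 5 (log2 fold change 0.64, SE 0.055, adjusted p = 0.0203). Together they took 29136, 27583 and 30211 CPM in donors 5, 6 and 10 at passage 2 and 44545, 38922 and 46435 CPM at passage 5. Rises were also measured in unsorted SCs, 12 of 13 with a median of 0.55 beside 3.18% of all genes, and in FAPs, 10 of 13 with a median of 0.50 beside 10.4%. The SC and FAP changes differed for 0 of 13 (4 at an unadjusted p under 0.05, 0 in DESeq2). Of all 12655 genes tested for that difference 2477 were under that unadjusted p. Without donor 6 the risers in SCs were 8, beside 201 of all 12333 genes. Without donor 5, where no gene of any kind passed, they were 0 with the median at 0.56. The deposited mitochondrial share of UMIs per SC, a common sign of RNA quality, had medians of 2.89 to 3.32% at passage 2 and 3.83 to 4.50% at passage 5. That share counts largely the same transcripts, so it is not a measure apart from the rise. The part of RNA quality in the rise was not tested. Nuclear genes of oxidative phosphorylation did not pass: of 49, 0 did so in edgeR (4 higher and 13 lower at an unadjusted p under 0.05) and 1 rose and 2 fell in DESeq2. Of all 12195 genes 1771 were higher and 2015 lower at that unadjusted p, and DESeq2 passed 813 upward and 879 downward.

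In the lists of growth and biosynthesis the genes that passed in SCs all fell, beside 5.62% of all genes that fell. Of 51 ribosome biogenesis genes NCL, FBL, NPM1, NOP10 and MRTO4 fell and 0 rose, with NCL, or nucleolin, at 948, 767 and 998 CPM at passage 2 and 520.5, 576 and 647 CPM at passage 5 (log2 fold change -0.70, SE 0.10, adjusted p = 0.0287). At an unadjusted p under 0.05, 29 of the 51 were lower and 0 higher, beside 2015 and 1771 of all 12195 genes. The list's median was -0.28. In the G1 cells scored together 8 were lower at that p, beside 1089 of all 11345 genes, with a median of -0.082. In FAPs 27 of 51 fell, against 11.8% of all genes. Of 77 cytosolic ribosomal proteins RPL14 and RPL3 fell, by 0.25 and 0.27 on the log2 scale, whereas 29 of 77 rose in FAPs, against 10.4% of all genes, and for 9 the SC change lay below the FAP change, against 1.09% of all genes. DESeq2 passed 0 of the 77 in SCs, 12 in FAPs, all upward, and 4 for the difference. It passed 936 of all 11791 genes upward in FAPs and 201 of 12655 downward for the difference. The median of the ribosomal list was -0.031 in SCs and 0.19 in FAPs. EIF5A and EIF4A1 fell among 43 translation factors. Of 32 genes of cholesterol and fatty acid synthesis MVD, FASN, ELOVL6, EBP and FADS2 fell, MVD of the mevalonate pathway from 70.0, 46.9 and 83.4 CPM to 36.3, 33.5 and 40.2 CPM (log2 fold change -0.89, SE 0.14, adjusted p = 0.0287). Without donor 10, 1 ribosome biogenesis and 2 cholesterol and fatty acid genes fell, beside 357 of all 12297 genes. Of the 32 cholesterol and fatty acid genes 0 fell among cells deposited as G1 (median -0.38) and 0 among those scored together (median -0.28). Of all genes only 0.414% and 0.15% fell in these G1 cells, so the counts say nothing particular about this list. None of 23 glycolysis genes passed in edgeR (1 higher and 11 lower at an unadjusted p under 0.05), and DESeq2 passed 5, all downward. Of all 12195 genes 2015 were lower at that unadjusted p, and DESeq2 passed 879 downward.

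Few genes of the stress and inflammatory lists passed, beside 4.12% of all genes that rose and 5.62% that fell. The lipoprotein receptor VLDLR was the 1 gene of 23 amino acid stress genes to rise, TXN and GCLM, which guard against oxidation, fell among 26 redox genes, and HSP90AA1 fell among 25 immediate early and heat shock genes. Of 29 interferon-stimulated genes PSMB8, TAP1 and HERC5 fell. PSMB8 was at 63.7, 94.4 and 151 CPM at passage 2 and 34.1, 60.7 and 81.6 CPM at passage 5 (log2 fold change -0.87, SE 0.10, adjusted p = 0.0215), lower in every donor although the ranges overlapped, with donor 10 highest at both passages. Of 23 chemokine and cytokine genes the scavenger receptor ACKR3 and the chemokine CCL26 rose. Of the markers of endothelial cells, macrophages and glia, 1, 2 and 1 were high enough to test and 0 passed in edgeR or DESeq2.

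Passages 0 and 8 frame the comparison, as a description without a test, since each is again 1 library. By the study's methods the cells of passage 0 had been plated unsorted on fibronectin, so the sort and, by those methods, a change of coating also lie between passages 0 and 2. Passage 0 held 163, 469 and 274 SCs of donors 5, 6 and 10 and passage 8 held 25 and 36 SCs of donors 6 and 10, while donor 5 had under the 10 cells required. G2M genes summed to 5231, 5082 and 4842 CPM at passage 0 in donors 5, 6 and 10 and to 816 and 804 CPM at passage 8 in donors 6 and 10, so in donors 6 and 10 they were lower at each later passage. The YAP-TEAD and SRF targets summed to 7628, 7368 and 5811 CPM at passage 2 and 12230.0, 10404 and 11169 CPM at passage 5, and to 3151, 4194 and 3732 CPM at passage 0 and to 11484 and 14312 CPM at passage 8, the opposite order. Committed genes went from 512, 366 and 380.3 CPM at passage 0 to 2969 CPM in donor 6 and 17782 CPM in donor 10 at passage 8. The mitochondrially encoded genes, by contrast, were at 30242, 28628 and 29328 CPM at passage 0 and at 19962 and 19396 CPM at passage 8, with the highest values at passage 5.

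**Figure D5:**
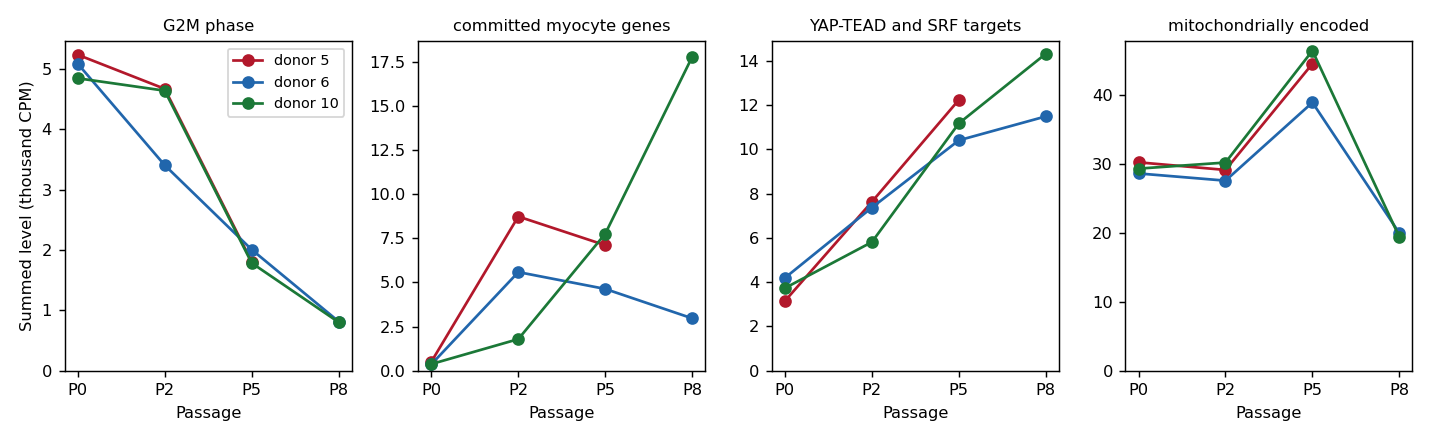
Summed level in units of 1000 CPM (vertical axis) of 4 gene lists in satellite cells of donors 5, 6 and 10 at passages 0, 2, 5 and 8 (1 library each, donor 5 not shown at passage 8). G2M genes fall and YAP-TEAD and SRF targets rise from passage 0 on, committed myocyte genes part between donors 6 and 10, and mitochondrially encoded genes are highest at passage 5.

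Levels of single genes were taken at passages 0 and 8 as well. PAX3 was at 0.650, 0.577 and 0.177 CPM at passage 0 and at 58 and 47.1 CPM in donors 6 and 10 at passage 8. INHBA was at 1.30, 5.10 and 7.62 CPM and then at 361 and 294 CPM. PAX7 stood at 5.20, 3.17 and 4.43 CPM at passage 0 and had 0 of 490864 and 0 of 788318 UMIs at passage 8, which allows a level of up to 6.11 and 3.81 CPM (3 counts, counting error only). That bound lay above the earlier levels in donor 6, where a loss was not detectable at this depth, and in donor 10 below the level at passages 0 and 2 but above that at passage 5. MYOG was at 10.7, 0.192 and 0.177 CPM at passage 0 and at 71.5 and 90.5 CPM at passage 8.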

How the data were processed

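Muscle cells of cattle were profiled with the 10x Genomics 3′ assay, with 1 pooled library per passage. The authors aligned reads with Cell Ranger 6.0.1 to ARS-UCD 1.2, assigned donors by genotype with demuxlet, removed doublets and outlying cells, and labelled cell types and phases. The deposited values used here are raw UMI counts per gene and cell, and the deposited cell table gave donor, type, phase and percent of mitochondrial UMIs. Its 7 other columns were not used. A deposited table of corrected expression was not used either. The series lists 2 samples for each of passages 0, 2 and 5, of which only the sample named run 1 was used.

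Counts were summed per donor and passage over cells of 1 type (at least 10 cells) and tested with edgeR 4.0.16 (R 4.3.3; TMM, filterByExpr, robust quasi-likelihood test, Benjamini-Hochberg adjustment over all genes tested) with the donor as a block. The same animals were sampled at both passages. The same-donor correlations of deviations from the passage means were 0.465, 0.427 and 0.185. SC minus FAP changes were tested as an interaction in 1 fit. With 3 donors a side, p-values measure the spread between these animals and not between repeat libraries. CPM used 1 set of TMM factors. Shares of cells with a UMI were taken after thinning to 8000 UMIs a cell, and shallower cells (12 to 64 SCs per donor and passage) were left out.

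The members, the 33 gene lists and the tests were chosen with earlier results of these data known. Named genes were the 12 with the largest change in each direction among genes past both limits, at a mean of 10 CPM or more in the higher passage and moving alike in all donors, up to 4 per list with the smallest adjusted p, PAX7, MYF5, MYOD1, MYOG and MYF6, and 6 per direction for the interaction, at 10 CPM or more in either cell type. Other genes were named after their values were seen. Alternatives were no donor block, DESeq2 1.42.0, RLE size factors, no filter on low counts, each donor left out, sums thinned to equal totals, and cells chosen by marker UMIs. Scripts were tested on simulated data, where the share of calls that were false was above the adjusted p limit of 0.05 in every comparison except the SC minus FAP changes, so single calls near the limit are less sure than their adjusted p says. Of 21880 genes, 16686 had a unique symbol. Genome coordinates and sequences are not given, because no genome of this build was used here. An item of a gene list is not reported here.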

Additional observations from a re-analysis of the deposited data

Results flagged for a closer look

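The passage change of 12 named genes differed between SC and FAP cultures by edgeR's interaction test. The SC change lay above the FAP change for CNN1 by 4.10 (SE 0.32, adjusted p = 0.00590) on the log2 scale, for LMCD1 by 3.77 (SE 0.31, adjusted p = 0.00708), for SLAMF9 by 3.63 (SE 0.36, adjusted p = 0.00729), for STMN2 by 3.59 (SE 0.40, adjusted p = 0.0111), for MFAP5 by 2.92 (SE 0.53, adjusted p = 0.0451) and for LMOD1 by 2.90 (SE 0.22, adjusted p = 0.00588). It lay below for NCF4, a subunit of the phagocyte oxidase, with -3.62 (SE 0.44, adjusted p = 0.0133), for SCN1A with -2.95 (SE 0.30, adjusted p = 0.00769), for CYP27B1, which activates vitamin D, with -2.73 (SE 0.34, adjusted p = 0.0138), for STEAP4, a metalloreductase, with -2.72 (SE 0.53, adjusted p = 0.0475), for CDH1, or E-cadherin, with -2.63 (SE 0.44, adjusted p = 0.0358) and for HOMER2 with -2.58 (SE 0.27, adjusted p = 0.00898). These genes were chosen for the size of the difference. STMN2 stayed under 1 CPM in the SCs of donor 6 at both passages.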

How the results depend on the processing

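Each passage is 1 library, and 3 donors leave few degrees of freedom, so the counts depend on the donors used. For SCs, 1187 genes passed and 472 also passed the fold limit. Leaving out 1 donor gave 0 (without donor 5) to 804 and 0 to 427 genes. Without the donor block 894 and 367 passed, and of 97 named genes that had passed 60 did so without the block, 94 in DESeq2, 96 with RLE size factors, 93 without a filter and 95 at equal totals. Cells chosen by marker UMIs, few in number, left 41 and 22 genes, kept the call of 11 of the 90 named genes tested in them, and turned SFRP5, COL8A2, SMOC1, ITGAV and FZD1 to -0.034, -0.071, -0.058, -0.22 and -0.028. The cause was not tested. MYOD1 gave -0.66 and passed without donor 10 (adjusted p = 0.0314) and gave up to 0.54 without another donor.

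For G1 cells (131 genes, 84 past the fold limit) the unpaired fit gave 40 and 28, DESeq2 436 and 196, no filter 441 and 176, joint scoring 65 and 45, and leaving out a donor 5 to 596 and 5 to 281. For unsorted SCs (534 and 219) the unpaired fit gave 62 and 43, no filter 1066 and 383, and leaving out a donor 57 (without donor 9) to 1243 and 52 to 467. For FAPs (2611 and 646) the unpaired fit gave 287 and 94, and leaving out a donor 576 (without donor 7) to 2496 and 390.0 to 770.0. For SC minus FAP changes (297 and 182) the unpaired fit gave 45 and 32, DESeq2 605 and 333, and leaving out a donor 31 (without donor 7) to 307 and 31 to 214. The G1 share difference moved from 6.65 to 33.7 points when both passages were scored together and to 33.0 after thinning, and over donors left out it was 2.25 to 12.8. The SC share difference was -30.2 to -3.20 points over donors left out, the latter without donor 5. Counts of lists near 0 (satellite identity, Notch, stress and interferon genes) changed sign of their median in at least 1 alternative and carry no direction.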
